A study of Rattus norvegicus with 6 samples.

Results

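The microRNAs (miRNAs) examined here are those of a small set that is made without the nuclear enzyme Drosha. The rule lists 2 of them, rno-miR-320-3p and rno-miR-484, and the values below are of rno-miR-484. Its members are the tags, that is the distinct read sequences, whose first 18 bases equal those of the mature miRNA. There were 7 such tags among the 1528721 different tags of the series, and they were carried by 13 reads. miR-484 was 1 of 675 miRNAs that could be told apart by their first 18 bases, from 717 mature rat sequences of RefSeq.

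Small RNA was sequenced from the livers of 3 male Wistar rats with nonalcoholic fatty liver disease (NAFLD) and 3 normal male Wistar rats, with 1 library per rat, and the labels give 4 months as the age of all rats, whereas the study's methods state a higher age. The NAFLD rats were fasted and then fed a diet rich in starch, and the sequenced livers were taken from those with more hepatic triglyceride. The normal rats received standard diet and their livers were chosen at random. The libraries held 11601058 to 11880695 clean reads, of which 75.7% to 91.3% started like a mature miRNA of the table. This share was lower in every NAFLD library than in every normal library. The NAFLD libraries held 413022 to 467746 different tags and the normal libraries 221610 to 264974. Levels below are scaled by clean reads, so they are not corrected for this difference between the groups.

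Most miRNAs are cut from a long primary transcript by Drosha and its partner Dgcr8 in the nucleus, and Dicer then cuts the hairpin in the cytoplasm. A few hairpins reach Dicer by another way. miR-320 and miR-484 were recognised because they persisted in mouse cells that lacked Dgcr8 but were lost without Dicer. Mirtrons such as miR-877 are short introns released by splicing, and miR-664 and miR-1839 come from small nucleolar RNAs (snoRNAs). The 3′ end of a mature miRNA can also be shortened, or extended by a base that the genome does not encode, most often A or U.

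The mature sequence of miR-484 is shown because the matching and the 3′ end forms both rest on it. The letters in capitals are its seed, bases 2 to 8 from the 5′ end, which pair with target mRNAs.

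rno-miR-484: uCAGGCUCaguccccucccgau

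In RefSeq (build GRCr8) this sequence of 22 nt lies on the minus strand at chr10:1394915-1394936. Its hairpin, Mir484, has 77 nt at chr10:1394905-1394981, and the mature miRNA takes bases 46 to 67 of it, so it lies on the 3′ side of the annotated hairpin with 10 bases after it. No other gene of that annotation overlaps Mir484, whose neighbours are Nde1 and Marf1. The seed is shared by 2 other mature miRNAs of the table, rno-miR-344-5p and rno-miR-344a-5p. These start with the same 18 bases as each other and had 0 reads in all 6 libraries, which allows at most 3 reads at the counting floor.

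All 7 tags of miR-484 are given next, since they are the whole of the evidence on its ends. Capitals mark bases beyond the annotated 3′ end or bases that differ from the hairpin.

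annotated end: tcaggctcagtcccctcccgat
shortened by 1 base: tcaggctcagtcccctcccga
extended by 1 hairpin base: tcaggctcagtcccctcccgatA
1 untemplated A: tcaggctcagtcccctcccgaA
3 untemplated A: tcaggctcagtcccctcccgaAAA
1 untemplated U: tcaggctcagtcccctcccgatT
2 untemplated U: tcaggctcagtcccctcccgatTT

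miR-484 was close to the limit of detection in these livers. The NAFLD libraries held 0, 4 and 0 reads of it in replicates 1, 2 and 3. The normal libraries held 5, 1 and 3 reads. Thus 2 of the 3 NAFLD libraries had no read, all 3 normal libraries had at least 1, and the groups overlapped because NAFLD replicate 2 lay above normal replicates 2 and 3.

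Expressed as TPM, the reads per 1000000 clean reads of the library, miR-484 stood at 0.113 ± 0.196 TPM for NAFLD livers and at 0.253 ± 0.169 TPM for normal livers (SD, n = 3 each). The difference was -0.139 TPM, which is smaller than the SD of either group (two-sided exact permutation test, p = 0.5). With 3 libraries against 3 the smallest p this test can give is 0.1. Summed over libraries, 4 reads among 35173554 in NAFLD and 9 among 35605232 in normal livers gave a ratio of 0.450, with a 95% exact interval from 0.101 to 1.61. The interval reflects the number of reads alone, and several reads can be PCR copies of a single molecule. A change in either direction within those bounds was not detectable at this depth. In whole liver, fewer cells of a type and less RNA per cell cannot be told apart.

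**Figure D1:**
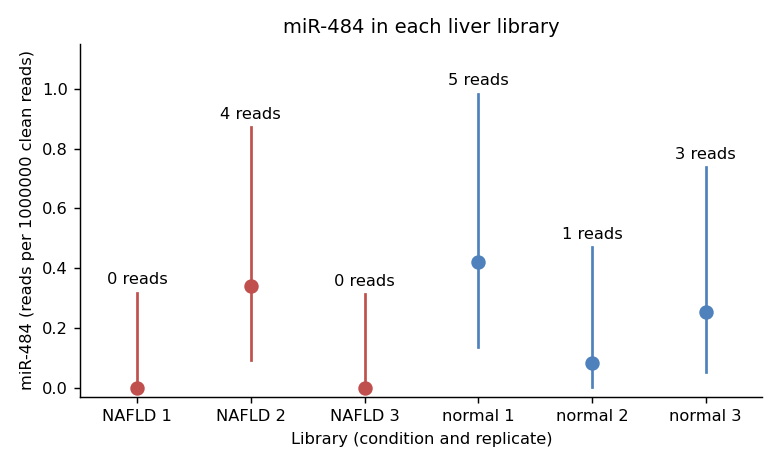
miR-484 in each library, in reads per 1000000 clean reads; points are the values, vertical lines the 95% exact Poisson intervals of the read number, and the number of reads stands above each line. The intervals of all 6 libraries overlap, and NAFLD replicates 1 and 3 have 0 reads.

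A library without a read still allows some miR-484. At 3 reads, the counting floor corresponds to 0.259 TPM in NAFLD replicate 1 and 0.254 TPM in NAFLD replicate 3. The mean of the normal libraries, 0.253 TPM, is close to both floors.

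The libraries also divide by a technical measure that cuts across the groups, the share of reads with a substituted base at position 4 of the most abundant tag. Replicates 2 and 3 of NAFLD and replicate 2 of normal liver had 1.39% to 1.63% of such reads, the others 0.0231% to 0.0260%. Within the former libraries, the mean of miR-484 was 0.170 TPM in 2 NAFLD libraries and 0.0842 TPM in 1 normal library. Within the latter, it was 0 TPM in 1 NAFLD library and 0.337 TPM in 2 normal libraries. The difference between groups therefore turned its direction between the sets, which are too small for a test.

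Across all miRNAs, 167 passed the filter on low counts of the edgeR quasi-likelihood test, and miR-484 was not among them. Of those tested, 1 had a Benjamini-Hochberg adjusted p under 0.05 (0.599%). It was the hepatocyte miRNA miR-122-5p, named here because it is the single call, with a log2 fold change of -0.35 (standard error 0.04, adjusted p = 0.000532 by edgeR). The call was lost with edgeR's TMM factors (log2 fold change -0.43, adjusted p = 0.899) and in DESeq2 (log2 fold change -0.41, adjusted p = 0.981), although the fold was not smaller. The single call of DESeq2 was another miRNA, miR-1b (log2 fold change -1.42, adjusted p = 0.00203), named after its value was seen. At 519081 TPM on average over all libraries, miR-122-5p is also the most abundant miRNA, as is usual in liver. It ranged from 445063 to 465119 TPM in NAFLD and from 560716 to 595583 TPM in normal libraries. Its fold is taken on clean reads, whose miRNA share was also lower in NAFLD. A change of miR-122-5p relative to the other miRNAs was not tested apart from the fits with TMM factors and DESeq2.

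Among the 675 miRNAs, 365 had at least 1 read and 310 had none. miR-484 had fewer reads than 226 of them and more than 132 of those detected, and the median of the detected miRNAs was 36 reads. In the plot of reads by rank it lies in the lower part of the curve. The nearest miRNAs above it on the same side of their hairpins were miR-6324 and let-7i-3p, which also had 13 reads each. The nearest below were miR-741-3p with 12 reads and miR-142-3p with 11. None of these neighbours could be separated from miR-484 at this depth.

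**Figure D2:**
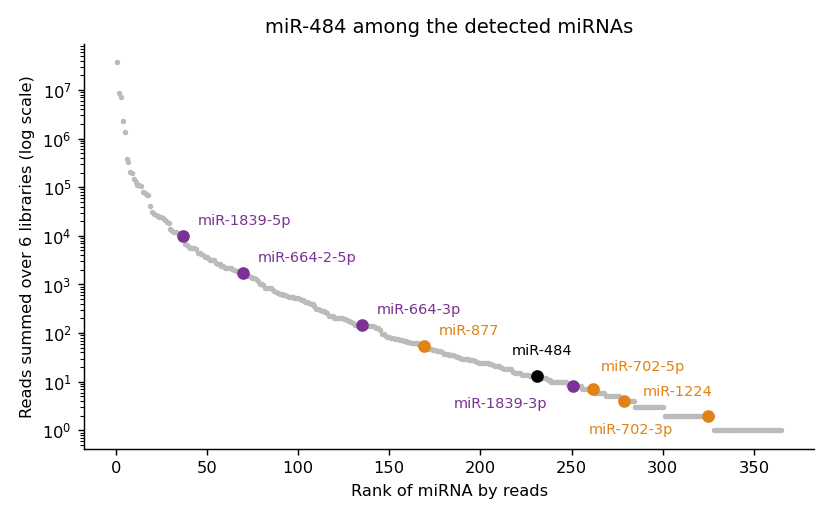
Reads of each of the 365 detected miRNAs summed over 6 libraries (log scale) against their rank; miR-484 is black, snoRNA-derived miRNAs are purple and mirtrons orange. miR-484 has 13 reads, below miR-1839-5p with 9991, miR-664-2-5p with 1741, miR-664-3p with 146 and miR-877 with 54.

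By Pearson's r of log2(TPM + 1) over 6 libraries, the profiles most like that of miR-484 among 87 miRNAs with a mean of at least 10 TPM were let-7d-3p (r = 0.53), miR-34c-5p (r = 0.47) and miR-33-5p (r = 0.43). With 13 reads on one side of each pair, these values describe the 6 libraries and are no finding.

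All reads of miR-484 that were found began at the same base. A search for bases 5 to 18 of the mature sequence anywhere in a tag found 14 reads, and 0 of them had a shifted start. Tags that match the hairpin over their whole length amounted to 9 reads, all from the annotated first base of the mature miRNA. The rest of the hairpin, including the other arm and the loop, had 0 reads in any library. At the counting floor, a count of 0 allows up to 3 reads.

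The 3′ ends were more varied than the starts. Of the 13 reads, 5 ended at the annotated base and 3 were shorter by 1 base. The annotated form was read 1 time in NAFLD replicate 2, 3 times in normal replicate 1 and 1 time in normal replicate 3. The shortened form was read 2 times in NAFLD replicate 2 and 1 time in normal replicate 1. A single read, of NAFLD replicate 2, was longer by 1 base that matches the hairpin. Untemplated A ended 2 reads, from normal replicates 1 and 2, and in both the A followed a 3′ end shortened by 1 base. Untemplated U ended 2 reads, both of normal replicate 3, after the annotated end. The classification fixes these positions in part. The hairpin base after the annotated end is A, so 1 A added there counts as a templated extension. Likewise, 1 U added to the end shortened by 1 base counts as the annotated form.

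As shares of the 13 reads, the annotated end made up 38.5% (95% exact Clopper-Pearson interval, 13.9% to 68.4%) and the shortened end 23.1% (5.04% to 53.8%). A tails and U tails made up 15.4% each (1.92% to 45.4%), and the templated extension 7.69% (0.195% to 36.0%). These intervals treat the pooled reads as independent and leave out PCR copies and the spread between rats. All 4 reads counted with an untemplated tail came from normal livers, and none of the 4 reads of NAFLD livers was so counted. The templated extension, read in NAFLD replicate 2, ends in A and cannot be told apart from an added A. Since all 4 NAFLD reads are of 1 rat, the end forms were not tested between the groups.

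For comparison, the same forms were counted in 25 other miRNAs that had 1000 or more reads in each library and 5 or more hairpin bases after the mature sequence. Mature miRNAs that share their first 18 bases with one of another name were left out, since the hairpin of one would make the ends of the other appear untemplated. A miRNA with several hairpins under the same name, such as let-7f-5p, was kept and compared with a single hairpin. Its share of untemplated tails can therefore be too high. Of the 25, 9 lie on the 3′ side of the hairpin like miR-484. Their median share of reads at the annotated end was 14.3%, with a range from 2.78% to 78.8%, and 6 of them lay below miR-484. Their median share of U tails was 12.96%, with 5 below and 4 above the value of miR-484. For A tails their median was 4.28% and their highest value 11.6%, so all 9 lay below the 15.4% of miR-484. Yet the interval of that value, from 1.92% upward, held 7 of these 9. Of the 16 miRNAs on the 5′ side, 1 lay above miR-484, at 17.9%. It was miR-1839-5p, which comes from a snoRNA and is itself listed below as made without the Drosha complex. Over both sides, the other 24 miRNAs had a smaller share of A tails than miR-484. Over both sides, the interval of miR-484 held 13 of the 25 miRNAs for the annotated end, 14 for the shortened end and 21 for U tails. These values are a description, and no test was made on 13 reads.

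**Figure D3:**
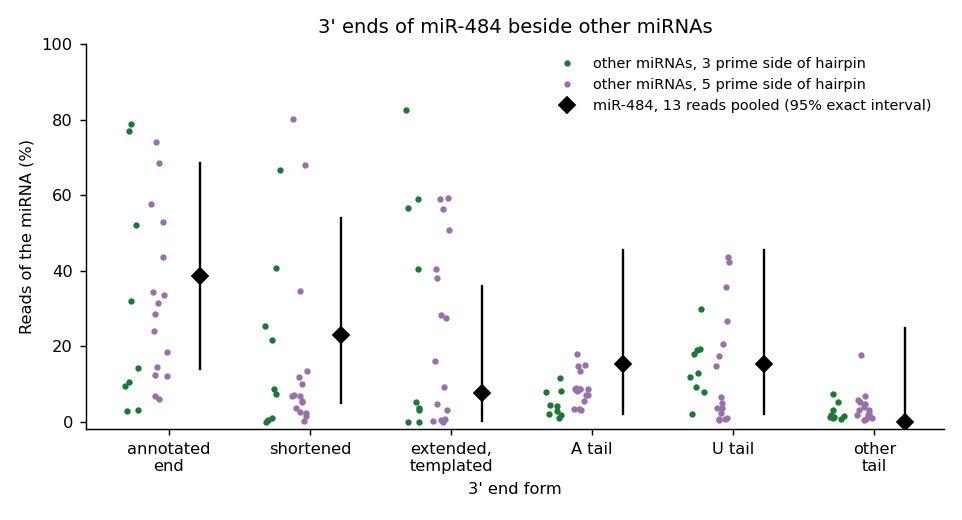
Share of the reads of a miRNA (%) by 3′ end form, for miR-484 over its 13 reads (black diamonds, lines are 95% exact intervals) and for 25 other miRNAs on the 3′ side (green points) or 5′ side (purple points) of their hairpins. The intervals of miR-484 are wide and hold 12 to 25 of the 25 other miRNAs, and its A-tail share of 15.4% lies above all 9 miRNAs of the 3′ side.

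The other miRNAs made without the Drosha complex give a measure of what the libraries could show. The list held 9 mature miRNAs, 4 of mirtrons and 5 from snoRNAs, of which 8 had at least 1 read. Only 4 had enough reads for edgeR's test, and 0 of these 4 had an adjusted p under 0.05, beside 0.599% of all 167 miRNAs tested. Their median log2 fold change of NAFLD over normal was 0.08, against 0.02 for all tested miRNAs. The mature sequences of the 3 best measured hairpins of the list are given with the seed in capitals.

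rno-miR-1839-5p: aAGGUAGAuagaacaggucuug
rno-miR-664-2-5p: cUGGCUGGggaaaaugauugg
rno-miR-877: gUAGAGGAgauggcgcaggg

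In RefSeq (GRCr8, plus strand) they lie at chr1:144893859-144893880 in Scarna15, at chr13:99324650-99324670 in Mir664-2 and at chr20:2816284-2816303 in Mir877.

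miR-1839-5p, the most abundant of the list, reached 212, 101 and 133 TPM in the livers with NAFLD, compared with 152, 106 and 144 TPM in normal livers. NAFLD replicate 1 was the highest, and the groups overlapped (log2 fold change 0.15, standard error 0.44, adjusted p = 0.986 by edgeR). miR-664-2-5p had 29.3, 27.8 and 21.8 TPM against 18.9, 20.6 and 29.4 TPM, again with overlap (log2 fold change 0.20, standard error 0.39, adjusted p = 0.986 by edgeR). The other arm, miR-664-3p, comes from more than 1 gene copy and stood at 1.87 ± 0.357 and 2.25 ± 1.06 TPM (SD, n = 3 each). The mirtron miR-877 had 12, 5 and 10 reads in the livers with NAFLD, compared with 8, 6 and 13 in normal livers. Its level was 0.769 ± 0.312 TPM and 0.758 ± 0.303 TPM (SD, n = 3 each), and the log2 fold change of 0.02 had a standard error of 0.54.

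The remaining mirtron products had still fewer reads than miR-484, with 7 for miR-702-5p, 4 for miR-1224 and 2 for miR-702-3p. From the snoRNAs, miR-1839-3p had 8 reads and miR-664-1-5p had 0.

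**Figure D4:**
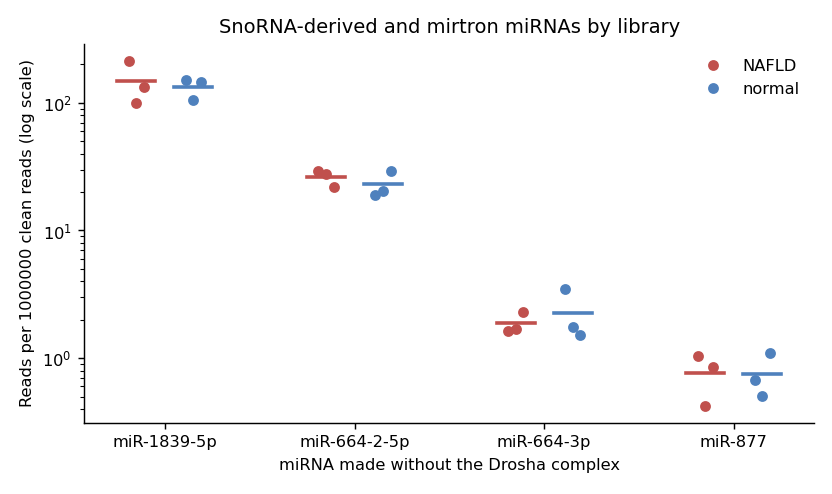
Reads per 1000000 clean reads (log scale) of the 4 listed miRNAs with enough reads for a test; points are libraries of NAFLD (red) and normal (blue) livers and bars the group means. The points of both groups overlap for every miRNA, and miR-1839-5p in NAFLD replicate 1 is the highest at 212.

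The 3′ end forms could be compared between the groups in 2 listed miRNAs with more reads. In miR-1839-5p, the annotated end took 34.5% ± 0.616 of reads in the NAFLD and 33.9% ± 0.479 in the normal libraries (SD, n = 3 each), and a templated extension took 39.9% ± 1.44 and 40.5% ± 0.479. In miR-664-2-5p, a 3′ end longer than annotated and matching the hairpin took 85.4% ± 2.39 and 86.8% ± 1.76. In the same miRNA, U tails took 3.35% ± 1.43 of reads in the NAFLD and 1.76% ± 0.487 in the normal libraries, and A tails took 4.41% ± 0.925 and 5.79% ± 1.19 (SD, n = 3 each). These last differences, of 1.60 and -1.37 percentage points, were larger than the SD of either group but did not pass the test. Over 5 forms of these 2 miRNAs, the smallest p was 0.2 (two-sided exact permutation tests, adjusted p = 0.8 over 10 tests), and 3 libraries against 3 cannot give a p below 0.1. No such comparison can be made for miR-484 with 13 reads.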

How the data were processed

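Gel-purified small RNA from liver was sequenced by the study, and the authors cleaned the reads of low-quality, primer, empty and poly A sequences and of those shorter than 18 nt. The deposited values are counts of reads per tag, neither normalized nor filtered for a genome match, and in each library they summed to the clean reads of its deposited log.

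Reads were summed over tags with the first 18 bases of a mature miRNA (RefSeq, GRCr8); TPM was reads divided by clean reads and multiplied by 1000000. The main test was edgeR 4.0.16 (R 4.3.3; glmQLFTest after glmQLFit, with filterByExpr, clean reads as library size and a Benjamini-Hochberg threshold of 0.05). DESeq2 1.42.0 and limma 3.58.1 were alternatives. On simulated counts of the NAFLD and normal comparison at a dispersion of 0.2, with 165 miRNAs tested, 15 of 20 changes of log2 2 and 1 of 20 of log2 1 were recovered. At 0.02, with 169 tested, all 20 of each were. Both runs made 1 false call, and the common dispersion of the real fit was 0.151. After base 18, tags were compared with the hairpin base by base; leftover bases are an untemplated tail. Other steps used Python 3.11.15, scipy 1.17.1 and pandas 2.3.3.

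Named miRNAs are miR-484, a list of mirtrons and snoRNA-derived miRNAs, the most similar profiles and the neighbours by level. Members and lists were chosen with earlier results of these data known. rno-miR-320-3p, genome mapping, target prediction and qRT-PCR were not analysed here.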

Additional observations from a re-analysis of the deposited data

How the results depend on the processing

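At 13 reads, depth limits every statement on miR-484. The planned edgeR fit gave it no value because of the filter on low counts, so the ratio of pooled reads, chosen after seeing the data, stands in its place (log2 ratio -1.15). Without that filter, edgeR gave a log2 fold change of -1.08 (standard error 1.08, adjusted p = 0.995). The TPM difference kept its direction in 10 alternatives, from -0.253 without NAFLD replicate 2 to -0.0550 without normal replicate 1. The exact permutation p ran from 0.2 to 1. The p of 0.2 was that without NAFLD replicate 2, where 2 libraries against 3 cannot give a smaller p. With at most 1 substitution 16 reads matched, and 5 were the whole mature sequence. Leaving out 1 library moved the share of templated extensions from 0% (without NAFLD replicate 2) to 12.5%, and that of U tails from 0% (without normal replicate 3) to 25%. The number of miRNAs with an adjusted p under 0.05 was 1 and became 0 with edgeR's TMM factors (12 at an unadjusted p under 0.05), 0 over all 18-base starts (998 of 10516 at an unadjusted p under 0.05), and between 1 and 2 when 1 library was left out, with 2 without NAFLD replicate 1. In the paired fit (replicate block) it was 1. Same-numbered libraries did not deviate together, with r of 0.15, 0.34 and -0.54. Over all 18-base starts, the median log2 fold change of NAFLD over normal was 1.11, against 0.02 over the 167 miRNAs tested. The 4 listed miRNAs had no adjusted p under 0.54 in any fit; miR-664-2-5p was higher in NAFLD in all 17 fits, miR-1839-5p in 16 of 17, miR-877 in 10 of 16 and miR-664-3p in 1 of 17. The alternative of tags with at least 10 reads left no tag of miR-484. The tests of miR-320-3p and of its ratio to miR-484 were not run. Leaving differently named miRNAs with shared first 18 bases out of the comparison of 3′ ends was chosen after seeing the data.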
